A study of Homo sapiens with 8 samples.

Results

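The cadherins CDH1 and CDH2, the filament protein vimentin (VIM) and 5 transcriptional repressors of the epithelial state (ZEB1, ZEB2, SNAI1, SNAI2 and TWIST1) were followed in Hep-3B and Huh7, established human hepatoma cell lines. Every probe set that the platform annotation pairs with exactly 1 gene symbol, that symbol being one of these 8 genes, was taken, which gave 18 of 54675 probe sets. A probe set is a group of short probes against a single transcript region. ZEB2 had 5 probe sets, ZEB1 4, CDH1, CDH2 and VIM 2 each, and SNAI1, SNAI2 and TWIST1 1 each. Levels come from 8 Affymetrix arrays in 4 groups of 2. In each line, cells carried a lentiviral short hairpin RNA (shRNA, which lowers the transcript it matches) to KLHL23, named shKLHL23, or against luciferase, called shLuc, the control. All cells, controls included, had been transduced at a multiplicity of infection of 2, grown with 10% fetal bovine serum and selected with puromycin from 48 hours on. The labels number the arrays of a group 1 and 3 and do not say whether they came from separate cultures, so every p-value here reflects only how these arrays spread, which may be technical. A single hairpin name is given for the knockdown in both lines, so loss of KLHL23 and other effects of that hairpin cannot be told apart.

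In epithelial-mesenchymal transition (EMT), epithelial cells loosen their junctions and become motile. E-cadherin, the product of CDH1, joins neighbouring epithelial cells and is anchored to actin by catenins. In a classical transition it is lost while N-cadherin (CDH2) and vimentin, an intermediate filament protein of mesenchymal cells, increase, although normal hepatocytes carry both cadherins. ZEB1 and ZEB2, which are zinc finger homeodomain proteins, and SNAI1 and SNAI2, which are zinc finger proteins, bind E-box sequences such as CACCTG and repress CDH1. TWIST1 is a basic helix-loop-helix factor that also binds E-boxes. The series title puts KLHL23, a Kelch-like protein, in a feedback loop that keeps cancer cells mesenchymal, and knockdown against control asks what its loss does to these transcripts.

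Of the 8 genes, 4 matched the RefSeq promoter table (GRCh38.p14), namely ZEB1, ZEB2, CDH2 and VIM. The 250 bases before a start are shown for ZEB1, VIM and CDH2, since each of these has a probe set that differed in Huh7 after knockdown. Capitals mark CACCTG or CAGGTG, the letters of 1 site read on either strand, and sequences run 5′ to 3′ on the strand of the gene; windows with no capitals hold no match. ZEB1 has 7 starts listed, and the 2 that hold the motif are printed; CDH2 has 2 starts, of which the first listed is printed.
ZEB1, chr10:31318167-31318416, plus strand: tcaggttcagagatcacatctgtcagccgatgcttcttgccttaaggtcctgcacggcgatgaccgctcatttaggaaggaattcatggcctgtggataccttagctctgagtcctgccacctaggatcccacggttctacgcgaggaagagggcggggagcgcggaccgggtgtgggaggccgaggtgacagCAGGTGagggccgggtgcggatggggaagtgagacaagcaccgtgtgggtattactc
ZEB1, chr10:31318966-31319215, plus strand: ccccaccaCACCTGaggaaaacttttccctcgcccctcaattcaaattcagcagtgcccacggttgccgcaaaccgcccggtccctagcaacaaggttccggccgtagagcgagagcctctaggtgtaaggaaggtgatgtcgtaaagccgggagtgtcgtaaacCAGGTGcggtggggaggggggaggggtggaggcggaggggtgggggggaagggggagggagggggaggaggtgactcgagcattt
VIM, chr10:17227991-17228240, plus strand: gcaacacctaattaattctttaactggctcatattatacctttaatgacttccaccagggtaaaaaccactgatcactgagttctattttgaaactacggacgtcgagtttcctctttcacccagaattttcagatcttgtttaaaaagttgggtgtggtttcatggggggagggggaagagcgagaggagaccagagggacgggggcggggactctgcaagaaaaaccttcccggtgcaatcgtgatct
CDH2, chr18:28177131-28177380, minus strand: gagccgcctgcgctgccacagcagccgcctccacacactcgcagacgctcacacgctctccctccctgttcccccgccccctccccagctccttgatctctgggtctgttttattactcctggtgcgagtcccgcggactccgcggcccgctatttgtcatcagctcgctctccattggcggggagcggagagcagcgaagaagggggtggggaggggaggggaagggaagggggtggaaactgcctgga
The motif begins 57 bases before the start in the first ZEB1 window and 242 and 85 bases before it in the second. These letters were not in the windows of VIM, CDH2 or ZEB2. Of 35116 promoters of the same length, 17.5% held the motif at least once, so a match is common and describes the letters only.

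Array medians lay between 4.563 and 4.597 and lower quartiles between 3.081 and 3.12 on the log2 scale. Replicates correlated at 0.994 to 0.997, and the SD of their difference was 0.223 and 0.263 in the knockdown groups of Hep-3B and Huh7 against 0.172 and 0.186 in the controls. The KLHL23 probe set paired with that gene alone stood at 65.5% and 31.4% of the control mean in Hep-3B knockdown replicates 1 and 3, and at 23.4% and 25% in Huh7 (log2 difference -1.14, limma adjusted p = 0.0765, and -2.05, limma adjusted p = 0.00392). All 14 measured hepatocyte markers lay above the array median in every group, with a lowest group mean of 7.90. Of 12 stellate cell and fibroblast markers 6 or 7 lay below it, and PDGFRA, LUM, POSTN and COL3A1 had group means of 2.23 to 3.51. Others lay above it: COL1A1 at 6.65 to 6.84 in all groups, RGS5 at 5.76 and 5.74 in Huh7 control and knockdown, and ACTA2 at 9.13 and 9.32 in Hep-3B control and knockdown against 4.72 and 4.94 in Huh7. The log2 of the summed level of that list was 9.69 to 9.75 in Hep-3B control, 9.85 to 9.86 in Hep-3B knockdown, 8.50 to 8.52 in Huh7 control and 8.52 to 8.55 in Huh7 knockdown, with ACTA2 the largest part of it in Hep-3B. The 3' minus 5' difference of the ACTB control probe sets, a sign of RNA quality, was 0.44 and 0.54 in Hep-3B control and 0.74 and 0.75 in knockdown, but 0.87 and 0.83 in Huh7 control and 0.52 and 0.55 in knockdown. It moved with the knockdown in opposite directions in the 2 lines. The same difference for GAPDH was 0.12 and 0.12 in Hep-3B control and 0.22 and 0.24 in knockdown, but 0.13 and 0.09 in Huh7 control and 0.15 and 0.11 in knockdown, so the fall in Huh7 showed in ACTB only. The part of either in the results was not tested.

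CDH1, the E-cadherin gene, rose about 2-fold in Huh7 after KLHL23 knockdown. The brighter of its probe sets, 201131_s_at, read 8.69 and 8.73 on the log2 scale in Huh7 control replicates 1 and 3 and 9.87 and 9.57 in knockdown replicates 1 and 3, the order used throughout. Both knockdown arrays lay above both controls, at 223% and 182% of the control mean. The log2 difference was 1.01 (SE 0.13, 95% interval 0.72 to 1.30, n = 2 per group, limma adjusted p = 0.00374). The dimmer probe set, 201130_s_at, read 5.02 and 4.63 in Huh7 control and 6.10 and 6.06 in knockdown. It differed by 1.25 (SE 0.13, limma adjusted p = 0.00193), so both probe sets gave the same direction in this line. Both calls held in every alternative that measured them, including each fit without 1 array.

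In Hep-3B the CDH1 probe sets disagreed. Probe set 201131_s_at read 8.99 and 8.92 in control and 9.22 and 9.46 in knockdown, a log2 difference of 0.39 (95% interval 0.10 to 0.68) that did not pass over all probe sets (limma adjusted p = 0.182). Probe set 201130_s_at read 5.58 and 5.56 in control and 5.36 and 5.49 in knockdown, at -0.15 (95% interval -0.45 to 0.15, limma adjusted p = 0.687). The knockdown arrays were above control by the first and below it by the second. Among the 4 groups, Huh7 knockdown was highest and Huh7 control lowest by both probe sets, the Hep-3B groups lay between, and the arrays of neighbouring groups did not overlap.

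CDH2, the N-cadherin gene, rose with CDH1 in Huh7 rather than opposite to it. Probe set 203440_at read 5.80 and 6.0 in Huh7 control and 6.64 and 6.56 in knockdown. The knockdown arrays lay above both controls by 0.71 (SE 0.14, 95% interval 0.38 to 1.03, limma adjusted p = 0.0198), a 1.63-fold difference. Without Huh7 control replicate 1 it was 0.61, without control replicate 3 it was 0.80 and without knockdown replicate 1 it was 0.66. The call was lost in each of these fits, which leave 1 array in a group. Calls over all probe sets fell in these fits too, and why this call was lost was not tested. The dimmer 203441_s_at read 4.92 and 4.83 in control and 5.16 and 5.24 in knockdown. Its difference of 0.32 (95% interval 0.04 to 0.61) did not pass (limma adjusted p = 0.169), although the groups did not overlap.

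In Hep-3B the CDH2 probe set 203440_at read 6.74 and 6.70 in control and 6.90 and 7.32 in knockdown. Most of its difference of 0.39 (95% interval 0.07 to 0.72, limma adjusted p = 0.226) comes from knockdown replicate 3, the array with the lower KLHL23 level: replicate 1 lay 0.18 and replicate 3 lay 0.61 above the control mean. Probe set 203441_s_at read 5.67 and 5.33 in control and 5.52 and 5.64 in knockdown, where the groups overlapped. By both probe sets the order of the group means was Hep-3B knockdown, Hep-3B control, Huh7 knockdown, Huh7 control. Control Huh7 lay below control Hep-3B by 0.82 (SE 0.14, limma adjusted p = 0.00242) and by 0.62 (SE 0.13, limma adjusted p = 0.00547) in the 2 probe sets. The second of these did not pass without Hep-3B control replicate 1 (-0.46, limma adjusted p = 0.0546).

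VIM separated the lines more than any other member and rose further in Huh7. Probe set 201426_s_at read 9.0 and 8.94 in Huh7 control and 10.69 and 10.40 in Huh7 knockdown, against 4.70 and 4.88 in Hep-3B control and 4.71 and 5.18 in Hep-3B knockdown. The control lines differed by 4.18 (SE 0.16, limma adjusted p = 2.56e-07), an 18.1-fold higher level in Huh7; with the gene's probe sets averaged, the dim one included, the difference was 2.15 (limma adjusted p = 7.52e-07). Knockdown raised it in Huh7 by 1.58 (SE 0.16, 95% interval 1.21 to 1.95, limma adjusted p = 0.00178), or 2.98-fold, with arrays at 330% and 270% of the control mean. This call held in every alternative that measured it, at 0.87 when the probe sets of the gene were averaged and 1.43 to 1.72 in fits without 1 array.

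In Hep-3B, where vimentin transcript stood near the median of the arrays, the knockdown difference was 0.15 (95% interval -0.22 to 0.52, limma adjusted p = 0.744) and the arrays of the groups overlapped. The upper bound lies below 1.21, the lower bound in Huh7. The other VIM probe set, 1555938_x_at, read 1.97 to 2.36 on all 8 arrays, below the lower quartile of each. It shows neither the line difference (0.13, limma adjusted p = 0.479) nor the Huh7 difference (0.15, limma adjusted p = 0.488), and so gives no support to either from a second probe set.

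**Figure D1:**
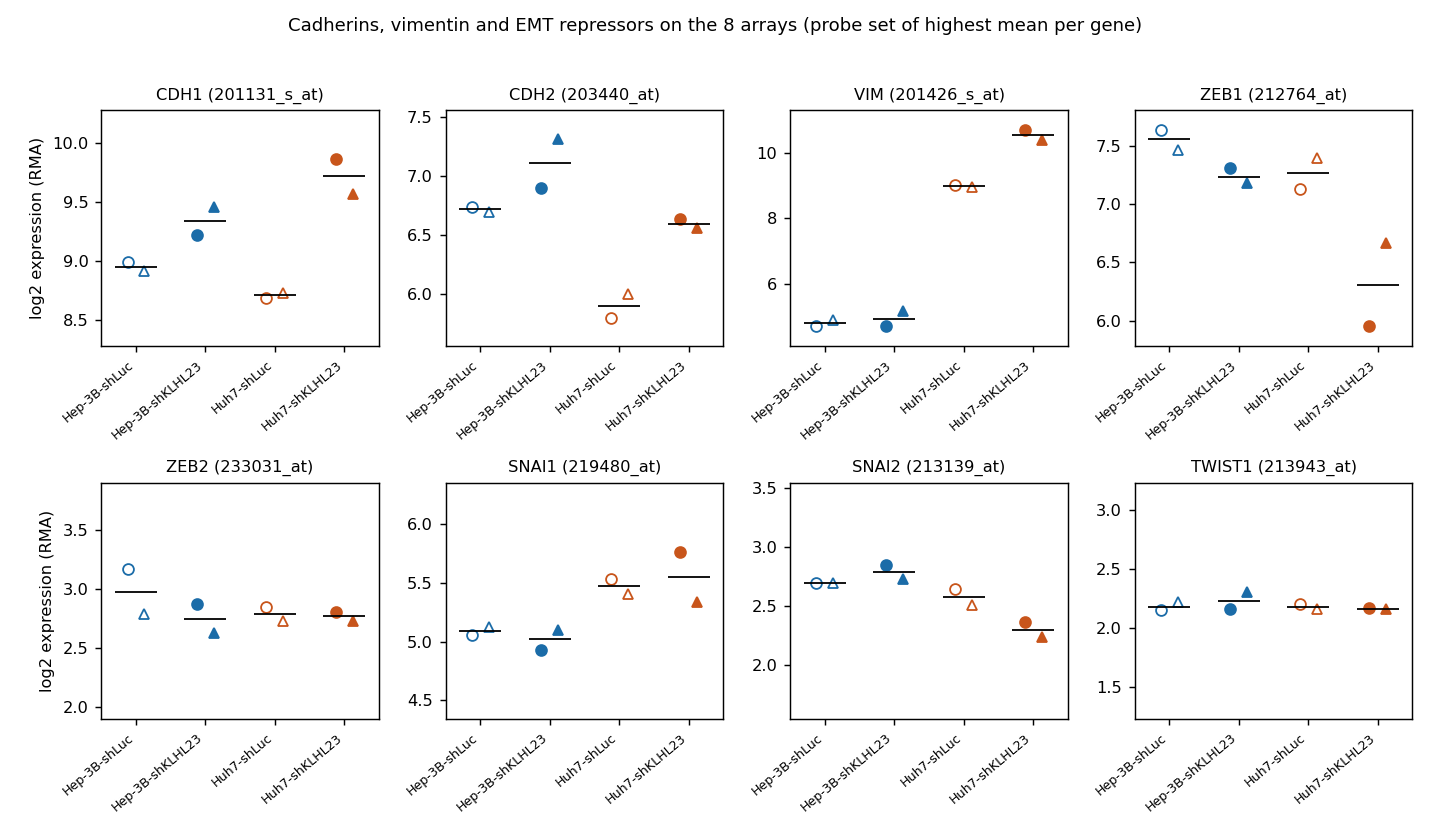
Log2 expression of the 8 genes on each array, by the probe set of highest mean. Points are single arrays (circle, replicate 1; triangle, replicate 3; open, shLuc; filled, shKLHL23; blue, Hep-3B; orange, Huh7), bars are group means, and each panel has its own vertical range. CDH1, CDH2 and VIM are higher and ZEB1 lower in the Huh7 knockdown arrays than in their controls, while ZEB2, SNAI2 and TWIST1 lie between 2.15 and 3.17 on all arrays.

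ZEB1 fell to 51.5% of control in Huh7 after knockdown by its brightest probe set. ZEB1 and SNAI1 were the repressors with a probe set above the lower quartile of every array. That probe set, 212764_at, read 7.13 and 7.40 in Huh7 control and 5.95 and 6.67 in knockdown. The knockdown arrays lay at 40.2% and 66% of the control mean, below both controls but uneven. The log2 difference was -0.96 (SE 0.21, 95% interval -1.42 to -0.49, limma adjusted p = 0.0240). It did not pass with Huh7 fitted alone (limma adjusted p = 0.0805), without Huh7 control replicate 1 (-1.09, limma adjusted p = 0.0851), without control replicate 3 (-0.82, limma adjusted p = 0.161) or without knockdown replicate 1 (-0.60, limma adjusted p = 0.0655). The direction was the same each time, and replicate 1 carries the larger part of the size.

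The other ZEB1 probe sets pointed the same way in Huh7 without passing. Probe set 210875_s_at read 4.79 and 4.84 in control and 3.32 and 4.29 in knockdown (-1.01, SE 0.27, limma adjusted p = 0.0546), with knockdown replicate 1 again the lower array. Probe set 212758_s_at read 5.03 and 4.97 in control and 4.42 and 4.75 in knockdown (-0.41, SE 0.15, limma adjusted p = 0.140). The dim 239952_at, below the lower quartile on 7 of 8 arrays, gave -0.22 (limma adjusted p = 0.458) with overlapping groups.

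In Hep-3B all 4 ZEB1 probe sets lay lower in both knockdown arrays than in both controls, and none passed. The groups did not overlap for 49.8% of all probe sets in that line, and these 4 read the same gene, so they are not independent. Probe set 212764_at read 7.64 and 7.47 in control and 7.31 and 7.18 in knockdown (-0.31, SE 0.21, limma adjusted p = 0.539). Probe set 212758_s_at gave -0.47 (limma adjusted p = 0.164), 210875_s_at -0.52 (limma adjusted p = 0.418) and 239952_at -0.39 (limma adjusted p = 0.240). In the mean of the 2 lines 3 of the 4 passed, at -0.64 (212764_at, limma adjusted p = 0.0264), -0.44 (212758_s_at, limma adjusted p = 0.0317) and -0.77 (210875_s_at, limma adjusted p = 0.0379). Each of these 3 calls is fragile: 212764_at lost it in 6 of the 8 fits without 1 array and each of the others in 5, with values of -0.57 to -0.70, -0.36 to -0.46 and -0.63 to -0.78 in those fits. The arrays concerned were both Hep-3B controls, Hep-3B knockdown replicate 3 and both Huh7 controls, with Hep-3B knockdown replicate 1 added for 212764_at and, for 212758_s_at, Huh7 knockdown replicate 1 in place of Hep-3B control replicate 3. By the brightest probe set the order was Hep-3B control, Huh7 control, Hep-3B knockdown, Huh7 knockdown, and only the middle neighbours overlapped.

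The remaining repressors gave no called difference. SNAI1, which encodes SNAIL, read 5.06 and 5.12 in Hep-3B control, 4.93 and 5.10 in Hep-3B knockdown, 5.53 and 5.40 in Huh7 control and 5.76 and 5.34 in Huh7 knockdown. Knockdown and control overlapped in both lines, with differences of -0.07 (95% interval -0.39 to 0.25) in Hep-3B and 0.08 (95% interval -0.24 to 0.41) in Huh7 (limma adjusted p = 0.880 and 0.801). These intervals allow changes of up to about 0.4 on the log2 scale. Control Huh7 arrays lay above control Hep-3B arrays by 0.38, which did not pass (limma adjusted p = 0.0867).

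ZEB2, SNAI2 and TWIST1 were at the bottom of the measured range. SNAI2, which encodes SLUG, read 2.70 and 2.70 in Hep-3B control, 2.85 and 2.73 in Hep-3B knockdown, 2.65 and 2.51 in Huh7 control and 2.37 and 2.24 in Huh7 knockdown. Its Huh7 difference of -0.28 (SE 0.11, limma adjusted p = 0.156) did not pass. TWIST1 read 2.15 to 2.31 on all 8 arrays, with differences of 0.05 in Hep-3B and -0.02 in Huh7. The ZEB2 probe sets read 1.82 to 3.17, and the knockdown difference furthest from 0 was -0.33 in Huh7 (228333_at, limma adjusted p = 0.115). The other 4 ZEB2 probe sets lay between -0.23 and 0.22 in both lines. SNAI2, TWIST1 and 4 of the ZEB2 probe sets were below the lower quartile on all 8 arrays and the fifth, 233031_at, on 7. The values used here carry no detection call, and RMA compresses changes at this level. A difference that did not pass therefore does not show that these transcripts were unchanged.

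**Figure D2:**
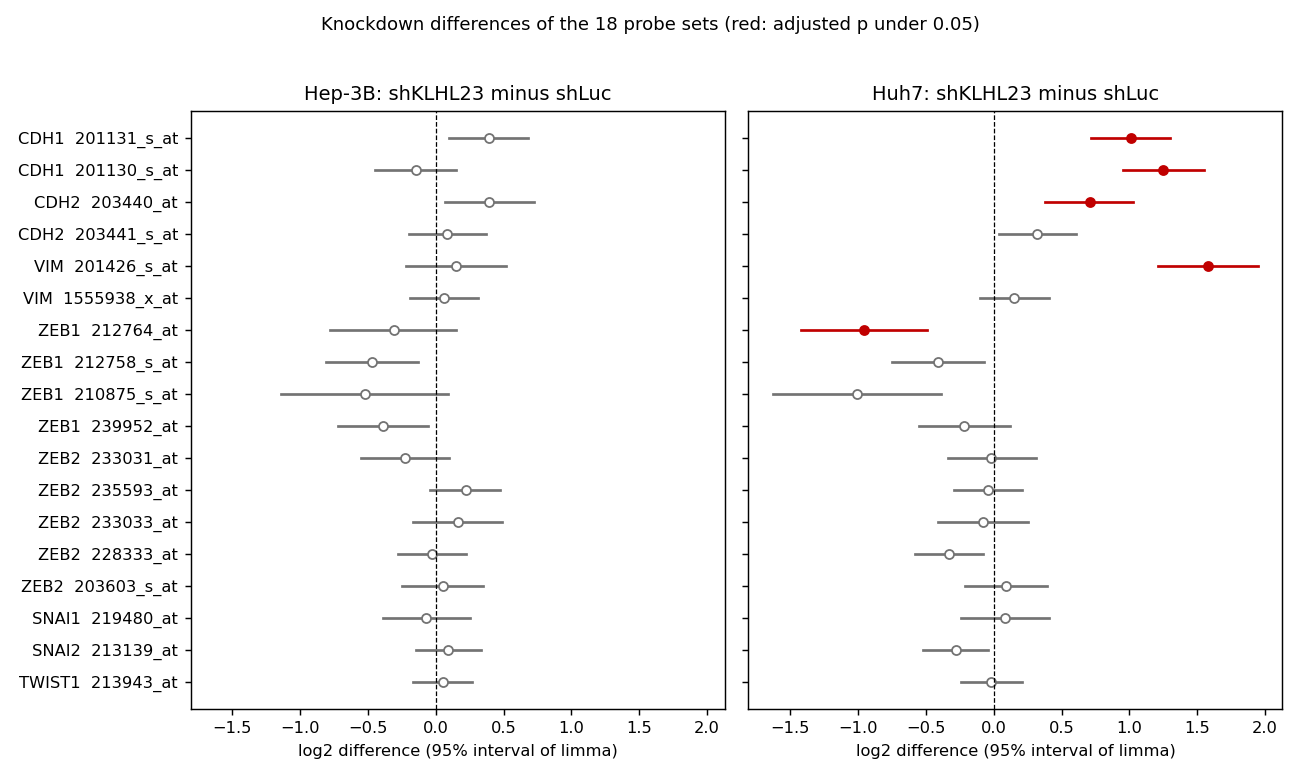
Knockdown minus control on the log2 scale for the 18 probe sets in Hep-3B (left) and Huh7 (right). Points are limma estimates from 2 arrays per group, lines their 95% intervals, and red marks an adjusted p under 0.05. In Huh7 CDH1 (1.01 and 1.25), CDH2 (0.71) and VIM (1.58) lie to the right and ZEB1 (-0.96) to the left; no interval in Hep-3B is marked.

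Counted over probe sets, 5 of 18 (27.8%) were called in Huh7, 4 higher and 1 lower, from 4 genes; among all probe sets 8.49% were called in that comparison, 3.83% higher and 4.67% lower. An unadjusted p under 0.05 was reached by 10 of 18, against 22.3% of all. The groups did not overlap for 11 of 18, against 49.2% of all probe sets. In Hep-3B 0 of 18 were called by limma against 1.14% of all, 4 of 18 had an unadjusted p under 0.05 against 15.6% of all, and 9 of 18 did not overlap against 49.8%, so the members there were close to the background. The mean over both lines called 7 of 18 (38.9%), 4 higher and 3 lower, against 10.1% of all, 4.48% higher and 5.59% lower. The 4 higher were both CDH1 probe sets, CDH2 (203440_at) and VIM (201426_s_at). A called mean need not be shared by the lines: CDH1 201130_s_at was 1.25 in Huh7 and -0.15 in Hep-3B. VIM was 1.58 in Huh7 and 0.15 in Hep-3B. The CDH2 mean (0.55) lost the call without Hep-3B control replicate 3 (0.54) or Huh7 control replicate 1 (0.50). In the comparison of control lines 5 of 18 (27.8%) were called against a background of 25.8% (12.9% in each direction), and 13 of 18 did not overlap against 62.6%, with VIM higher in Huh7 and CDH1 (201130_s_at, -0.74), both CDH2 probe sets and ZEB1 (212758_s_at, -0.49) lower. The ZEB1 call (limma adjusted p = 0.0399) did not pass without Hep-3B control replicate 1 (-0.34) or without Huh7 control replicate 1 (-0.52) or 3 (-0.46). Probe sets of a gene share its transcript, so these counts are not of independent items. The members were chosen with earlier results of these data known, so an excess over all probe sets cannot be told apart from that choice. The 2 knockdown comparisons have no array in common, but both come from 1 fit. Each p-value therefore also uses the spread of the other line's arrays.

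The difference between the lines was tested directly, as the Huh7 effect minus the Hep-3B effect. It passed for 2 of 18 probe sets (11.1%), both higher, against 0.933% of all, 0.444% higher; 4 of 18 had an unadjusted p under 0.05, against 13.5%. VIM responded more in Huh7 by 1.43 (201426_s_at, SE 0.23, limma adjusted p = 0.0351) and CDH1 by 1.40 (201130_s_at, SE 0.19, limma adjusted p = 0.0212). For the brighter CDH1 probe set it was 0.62 (limma adjusted p = 0.166). For CDH2 (203440_at, 0.31, limma adjusted p = 0.572) and ZEB1 (212764_at, -0.64, limma adjusted p = 0.383) a difference between lines was not shown. With 1 array left out, the CDH1 difference passed only without Hep-3B knockdown replicate 1 or Huh7 knockdown replicate 3. The other 6 fits gave 1.2 to 1.59 (limma adjusted p = 0.0505 to 0.106). The VIM difference passed only without Huh7 knockdown replicate 3, and the other 7 fits gave 1.19 to 1.66 (limma adjusted p = 0.0509 to 0.158). With the VIM probe sets averaged it was 0.76 (limma adjusted p = 0.0428).

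**Figure D3:**
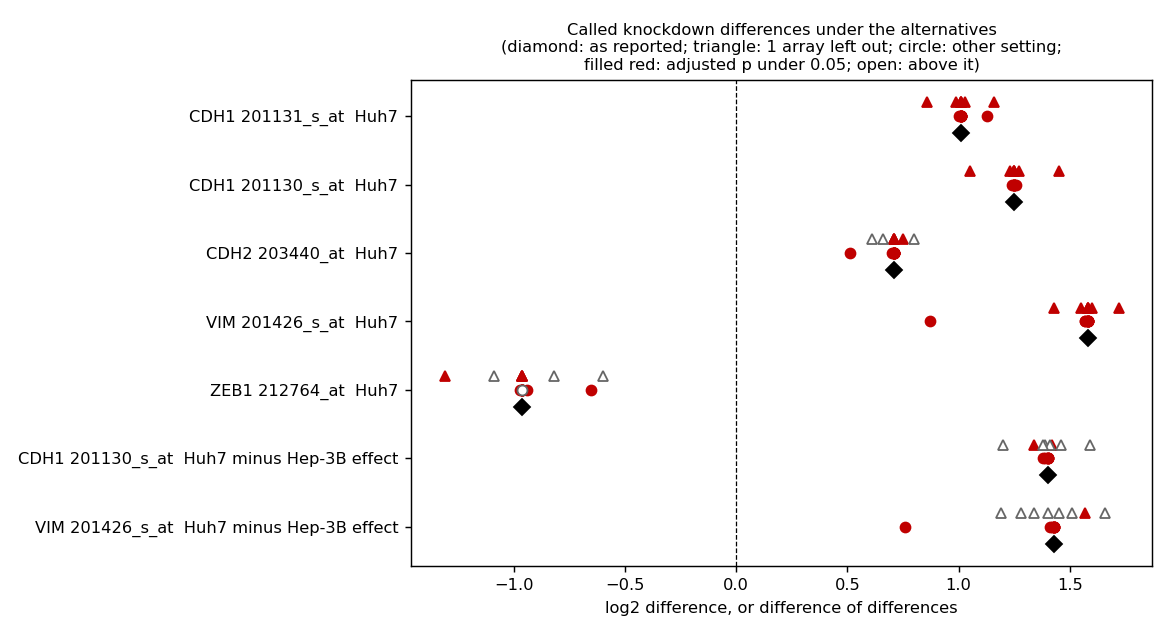
Called knockdown differences of the members in Huh7, and called differences between the lines, under each alternative setting (horizontal axis, log2). Diamonds are the reported values, triangles fits without 1 array, circles other settings, filled red where the adjusted p was under 0.05 and open where it was not. All points keep the side of 0 of the reported value; CDH1 and VIM in Huh7 stay filled, and CDH2, ZEB1 and both differences between lines have open points.

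Genes that work with the members were read from 8 lists, each gene by its probe set of highest mean; 184 of 199 listed genes matched. In Huh7 36 of them (19.6%) were called, 14 higher and 22 lower, against 10.7% of all genes, 4.46% higher and 6.20% lower. In Hep-3B 2 were called, both higher, against 0.956%, 0.718% higher. The lists were chosen with earlier results of these data known, so an excess over all genes cannot be told apart from that choice. These shares of all genes also stand beside each list below. The Huh7 count fell to 9 without Huh7 control replicate 1 or 3 and was 24 without Huh7 knockdown replicate 1 or either Hep-3B control array. The Hep-3B count was 0 without either Hep-3B control, Hep-3B knockdown replicate 3 or either Huh7 control, and 14 without Hep-3B knockdown replicate 1. Of the 36, 7 were called in each of the 8 fits without 1 array: PLEKHA7, KRT19, SPINT1, TAGLN, AJUBA, YAP1 and SIAH2. In every fit for which a list count is given here, calls over all probe sets moved in the same direction as that count. Whether the lists stood above all genes in those fits was not tested. The Huh7 median over all genes was 0.00 and the Hep-3B median 0.02.

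Among cadherin partners at adherens junctions, 2 of 17 rose and 2 fell in Huh7 (list median 0.07), against 4.46% higher and 6.20% lower of all genes. LIMA1, which links the catenin complex to actin, rose by 0.80 (limma adjusted p = 0.0048) and plakoglobin, JUP, by 0.70 (limma adjusted p = 0.0236). PLEKHA7, which tethers microtubules to the junction, fell by 0.92 (limma adjusted p = 0.00164), and the kinesin KIFC3, its partner there, by 0.46 (limma adjusted p = 0.0212). None of 17 was called in Hep-3B by limma, with NECTIN1 at 0.23 and LIMA1 at 0.20. Of 18 other cadherins 0 were called in either line, with CDH16 at 0.97 and CDH17, a liver and intestine cadherin, at 0.81 in Hep-3B (limma adjusted p = 0.141 and 0.0509) and at 0.57 and 0.31 in Huh7 (limma adjusted p = 0.293 each). Their mean effects over the lines passed, at 0.77 (limma adjusted p = 0.0453) and 0.56 (limma adjusted p = 0.0156). In that comparison 2 of 18 were called, against 10.1% of all probe sets, 4.48% higher and 5.59% lower. Mean effects of the other lists are not given here.

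Several intermediate filament genes rose beside vimentin in Huh7. Of 18, 5 rose and 1 fell in Huh7 (list median 0.09), against 4.46% higher and 6.20% lower of all genes. KRT19, a keratin of simple epithelia and bile ducts, read 8.02 and 8.26 in Huh7 control and 9.67 and 9.26 in knockdown (1.32, limma adjusted p = 0.0026). The nuclear lamins LMNA (0.93) and LMNB2 (0.78) and the filament linker SYNM (0.62) also rose. In Hep-3B SYNM rose by 1.04 (limma adjusted p = 0.0186), the single call of that list (list median 0.00), while KRT19 stood at 12.01 to 12.34 in all Hep-3B arrays.

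Epithelial genes that SNAIL and ZEB proteins are known to repress split in Huh7, with 5 of 33 higher and 3 lower (list median -0.07), although CDH1 itself rose. The shares over all genes were 4.46% higher and 6.20% lower. KRT19 rose with SPINT1, a protease inhibitor of epithelia (1.31, limma adjusted p = 0.0016), the claudin CLDN4 (0.88) and the lipid enzyme CDS1 (0.79). The tight junction genes CLDN1 (-0.75) and TJP1 (-0.58) and the epithelial transcription factor GRHL1 (-0.74) fell. In Hep-3B 0 of 33 were called, with ELF3 at -0.85 (limma adjusted p = 0.0505) and TJP3 at 0.65 (limma adjusted p = 0.214).

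Of 37 other mesenchymal genes, 1 rose and 1 fell in Huh7 (list median 0.05), where 4.46% of all genes were called higher and 6.20% lower. The actin-binding TAGLN differed by 1.81 (limma adjusted p = 0.00404), and LOX, a collagen crosslinking enzyme, by -1.15 (limma adjusted p = 0.0479). LOX did not pass without Huh7 knockdown replicate 1, without either Huh7 control or without either Hep-3B control, with values from -1.62 to -0.67 over the 8 fits without 1 array. In Hep-3B 1 of 37 rose, the microfibril gene FBN1 (0.76, limma adjusted p = 0.0362), against 0.718% of all genes (list median -0.03).

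Other EMT transcription factors gave 0 rises and 5 falls among 19 in Huh7 (list median -0.25), against 4.46% higher and 6.20% lower of all genes. LEF1, the Wnt effector, fell by 0.62 (limma adjusted p = 0.0276), ID1 by 0.60 (limma adjusted p = 0.0185), SOX9 by 0.56 (limma adjusted p = 0.0298) and SOX4 by 0.48 (limma adjusted p = 0.0308). Over the 8 fits without 1 array, LEF1 ran from -0.81 to -0.44 and ID1 from -0.74 to -0.45. SOX9 ran from -0.68 to -0.44 and SOX4 from -0.62 to -0.35. Each of the 5 calls was lost in some of these fits. In Hep-3B 0 of 19 were called (list median -0.10), with SOX9 at -0.64 (limma adjusted p = 0.0526) and FOSL1 at -0.30 (limma adjusted p = 0.318).

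Among partners of the repressor proteins more genes fell than rose in Huh7, as over all genes (6.20% lower, 4.46% higher). Of 21 corepressors and chromatin partners 4 fell and 1 rose (list median -0.08). AJUBA, a LIM protein that SNAIL recruits, read 10.45 and 10.44 in Huh7 control and 8.52 and 8.51 in knockdown (-1.93, limma adjusted p = 9.89e-04). The deacetylase SIRT1 (-1.17) and YAP1, the Hippo pathway coactivator (-0.99), fell, and the histone methyltransferase EHMT2 rose (0.57). Of 26 genes for turnover of SNAIL, TWIST and ZEB proteins 6 fell and 2 rose (list median -0.09). They included the ubiquitin ligase genes SIAH2 (-0.96), FBXO11 (-0.71), FBXO45 (-0.71) and SIAH1 (-0.61). In Hep-3B 0 of 21 and 0 of 26 were called (list median -0.07 in each), with AJUBA at -0.77 (limma adjusted p = 0.0661), SIRT1 at -0.54 (limma adjusted p = 0.140), SIAH1 at -0.44 (limma adjusted p = 0.125) and CSNK1A1 at -0.34 (limma adjusted p = 0.169).

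**Figure D4:**
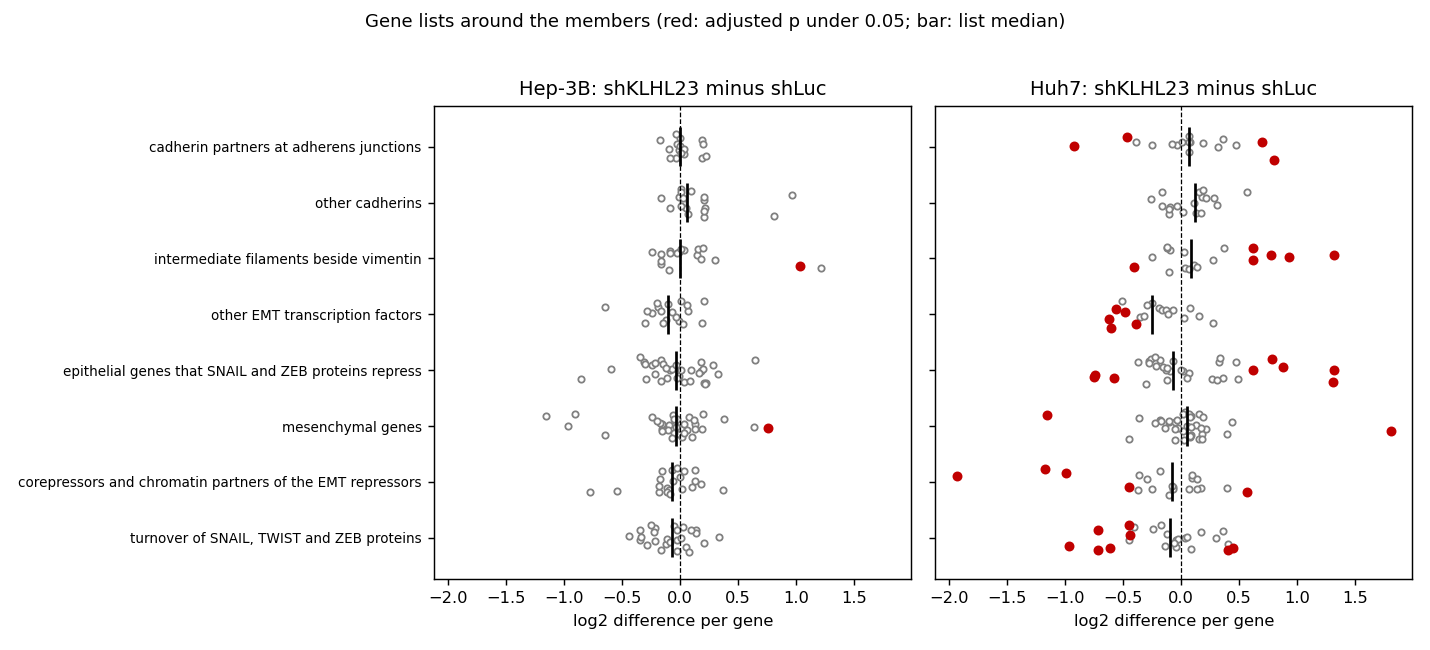
Knockdown minus control per gene (horizontal axis, log2) for the 8 lists in Hep-3B (left) and Huh7 (right). Each point is a gene by its probe set of highest mean, red where the adjusted p was under 0.05, and bars are list medians. Red points lie on both sides of 0 among the epithelial genes in Huh7 (5 higher, 3 lower) and only below 0 among the other EMT transcription factors (5 lower). Each call of these transcription factors was lost in some fits without 1 array. Of all genes, 4.46% were called higher and 6.20% lower in Huh7.

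Patterns like those of the members were sought over the 8 arrays among 2780 genes whose group means span at least 1 on the log2 scale, by Pearson correlation. The arrays share 2 lines and 2 hairpins, so these values describe 4 groups rather than 8 independent points. CDH1 was most like MYO1D (0.989), PAPSS2 (0.960) and POLR2L (0.957), and only 5 genes exceeded 0.95. ZEB1 was most like DEPDC1 (0.988), TBL1XR1 (0.984) and KLHL28 (0.983), with 35 genes above 0.95. CDH2 was nearest to INPP5A (0.991), TUBB3 (0.989) and SNN (0.988), with 74. VIM, which is set mainly by the line, was nearest to MSRB2 (0.999), MSTO1 (0.998) and RAB1B (0.997), with 441.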

How the data were processed

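Total RNA of 8 samples was hybridised to Affymetrix arrays. The deposited values are log2 expression, which the submitters' processing notes say the authors made with RMA and Affymetrix Expression Console 1.2; other settings are not given in the sources used here. RMA equalises the distribution of the arrays and compresses changes of dim probe sets. The annotation pairs 41097 of 54675 probe sets with 1 gene symbol, 1801 with several and 11777 with none.

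A model with a mean per group was fitted to all 8 arrays and all 54675 probe sets with limma 3.58.1 in R 4.3.3 (lmFit, eBayes; 4 residual and 5.16 prior degrees of freedom). Benjamini-Hochberg adjustment ran over the whole table, and a probe set was called at an adjusted p under 0.05. With 2 arrays per group, their number limits the precision. Contrasts were knockdown minus control per line, the mean and the difference of these, and control Huh7 minus control Hep-3B. The procedure was tested on simulated data.

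The members and lists were chosen with earlier results of these data known. All member probe sets are given. From each list up to 4 called genes of largest difference are named per line, or 2 where none was called. Alternatives were other summaries of probe sets, normalizations, a filter on dim probe sets, array weights, trend and robust eBayes, single-line fits, a replicate block and leaving out each array. Leaving out arrays for the list counts was chosen after seeing the data.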

Additional observations from a re-analysis of the deposited data

Results flagged for a closer look

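The knockdown effect differed between the lines, by limma's test of the difference itself, for 2 member probe sets and 4 genes of the lists. The differences, Huh7 effect minus Hep-3B effect, were 1.40 for CDH1 (201130_s_at) and 1.43 for VIM (201426_s_at). For TAGLN the effect was 1.81 in Huh7 and -1.15 in Hep-3B, of which the second was not called. Its Hep-3B arrays read 9.27 and 9.18 in control and 8.48 and 7.66 in knockdown. Its difference between the lines was 2.96 (limma adjusted p = 0.0128). For SPINT1 it was 1.14 (limma adjusted p = 0.0352), for YAP1 -0.82 (limma adjusted p = 0.0480) and for PLEKHA7 -0.75 (limma adjusted p = 0.0448). With 1 array left out, SPINT1, YAP1 and PLEKHA7 passed only without Huh7 knockdown replicate 3, and over the 8 fits their differences were 1.01 to 1.28, -0.93 to -0.71 and -0.78 to -0.71. TAGLN lost the call without either Hep-3B control, Hep-3B knockdown replicate 3 or either Huh7 control, at 2.55 to 3.37 over the 8 fits. KLHL23 was lower in the Huh7 than in the Hep-3B knockdown arrays, and the part of this in the differences between lines was not tested.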

How the results depend on the processing

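All 19 called member differences over the 5 comparisons kept their direction in every alternative that measured them, and 9 also kept the call. The count of called member probe sets in Huh7 was 5 of 18 (4643 of 54675 over all). It was 2 of 10 (2741 of 39173 over all) without _x_at and _s_at probe sets, which removes both CDH1 probe sets and both of VIM. At an unadjusted p under 0.05 it was 10 of 18, against 22.3% of all. In Hep-3B it was 0 in every alternative except the unadjusted p, where it was 4 of 18, against 15.6% of all. For the mean over lines it was 7 of 18 (5507 of 54675 over all). With 1 probe set per gene it was 4 of 8 (3089 of 19775), and the same with probe sets averaged per gene (2825 of 19775). Without _x_at and _s_at probe sets it was 2 of 10 (3237 of 39173). For the difference between lines it was 2 of 18 (510 of 54675 over all). With 1 probe set per gene it was 1 of 8 (249 of 19775) and without _x_at and _s_at probe sets 0 of 10 (318 of 39173). At an unadjusted p it was 4 of 18, against 13.5% of all. For the control lines it was 5, 2 with 1 probe set per gene, 3 with probe sets averaged per gene, 1 without _x_at and _s_at probe sets and 3 to 6 without 1 array. In several fits without 1 array, the counts for Huh7, the mean over lines and the difference between lines were lower than with all arrays. These fits leave 1 array in a group, and calls over all probe sets mostly fell in them too. With the replicate number as a block the counts stayed at 0 (Hep-3B), 5 (Huh7), 7, 2 and 5. The deviations of arrays with the same number correlated at -0.05 to 0.06, so no strong shift shared by them was seen. That cannot show whether arrays of the same number were made together. Over all probe sets the calls in Hep-3B were 623, 0 with that line fitted alone or without Hep-3B control replicate 1, and 1986 without knockdown replicate 1; in Huh7 they were 4643 and 545 without control replicate 3. Uncalled differences changed sign without 1 array, over which they ran from -0.08 to 0.39 for VIM in Hep-3B, -0.15 to 0.01 and -0.12 to 0.29 for SNAI1 in Hep-3B and Huh7, and -0.02 to 0.12 and -0.04 to 0.00 for TWIST1. They also did for ZEB2 (233031_at) in Huh7 (0.02 and 0.04), and with the mean of probe sets for ZEB2 in Hep-3B (0.03). The cause of these shifts was not tested where the alternative tested the same probe sets. Signal near the lower quartile limits what can be said of ZEB2, SNAI2 and TWIST1.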
